A study of Homo sapiens with 6 samples.

Results

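The mitochondrial ribosomal protein genes were described as a set in DLD1 cells. Members were the protein-coding rows whose symbol starts with MRPL or MRPS followed by a digit. The co-culture expression table held 78 such members among 21519 rows. The METTL1 knockdown table, which lists genes with an m7G peak, held 58 members among 9450 rows. DLD1 is an established line of human colorectal cancer cells. RNA was sequenced from wild-type DLD1 cells cultured beside fibroblasts. The library titled S-CAFs-w13 names its co-culture, and the library titled DLD1-W13CM was the other one, whose title does not say which culture it was. Stable METTL1 knockdown cells, made with a single construct (sh2), and control cells (sh-NT) each gave an unselected input library and an m7G immunoprecipitate (IP). There was 1 library in each of the 6 groups, which leaves the differences below with no replicate check and no p-value across libraries. The series text mentions 2 replications for these lines, whereas the samples analysed here comprise 1 input and 1 IP library per line, and whether a library pools replications is not stated. Counts past a fold describe these libraries, not the conditions.

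Mitochondria translate the few proteins encoded by their own genome on a dedicated ribosome, whose RNA parts come from mitochondrial DNA and whose proteins are all encoded in the nucleus, made in the cytosol and imported. The products of that ribosome are core subunits of the respiratory chain and the ATP synthase. Many of its proteins have relatives in the bacterial ribosome, while others are found only in mitochondrial ribosomes. METTL1, with its partner WDR4, writes 7-methylguanosine (m7G) into tRNAs and other RNAs. The cap at the 5′ end of mRNAs carries m7G as well.

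By role, 51 members encode large subunit proteins and 26 encode small subunit proteins. The large subunit count includes MRPS18A and MRPS30, whose symbols carry the small subunit letter. The remaining member, MRPS36, is now known as KGD4 and belongs to the 2-oxoglutarate dehydrogenase complex, not to the ribosome. A knockdown row was missing for 20 members. They were MRPL4, MRPL11, MRPL13, MRPL22, MRPL23, MRPL27, MRPL46, MRPL48, MRPL49, MRPL52, MRPL55, MRPS5, MRPS11, MRPS15, MRPS17, MRPS22, MRPS23, MRPS24, MRPS27 and MRPS30. Their median co-culture level was 5.88 FPKM (sequenced fragments scaled by gene length and by an effective library size), against 9.23 FPKM for members with a row.

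RefSeq promoter windows (GRCh38.p14, 250 bases before to 50 after a gene's start) were matched for 69 members. The motif CCGGAAG, a core of ETS family binding sites such as that of GABPA, was searched on both strands and was present in 29 of the 69 windows (42.0%). Of all 27305 windows 10.7% held it, as did 21.1% of the 8309 windows of genes expressed in the co-culture libraries. AANATGGCG, a core of YY1 sites, was present in 18 member windows (26.1%), against 3.37% of all and 7.79% of expressed windows. Only 4 of its 20 matches in members lay upstream of the start. GCGCATGC, a core of NRF1 sites, was present in 6 (8.70%), against 3.27% and 5.79%. A match is a string of letters, not evidence that a factor binds there. In the co-culture comparison described below, the median log2 ratio of members was -0.24 with the ETS string and -0.19 without it, -0.11 and -0.24 for YY1, and -0.04 and -0.24 for NRF1. These differences were not tested.

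Sequence upstream of 5 members is printed as a selection of examples. MRPL15, MRPS7 and MRPL36 also passed 2-fold in the co-culture comparison but are not printed. No CCGGAAG match was recorded for MRPS7 and MRPL36. For MRPL15 no RefSeq start was matched to its peak, so the lack of a recorded match there is not a negative result. MRPL51 is printed although it did not pass 2-fold. How often the string occurs among the printed genes therefore reflects their selection and does not link it to a change in RNA. MRPS11 shares its start region with another member, MRPS12 and MRPL51 were lower in S-CAFs-w13, and MRPL58 and MRPL47 were the members lowest in the knockdown input relative to control. Each runs 5′ to 3′ on the gene's strand and ends at the base before the RefSeq start. Capitals mark CCGGAAG or its reverse complement where it lies whole within the stretch.
MRPS11, chr15:88467458-88467707, plus strand: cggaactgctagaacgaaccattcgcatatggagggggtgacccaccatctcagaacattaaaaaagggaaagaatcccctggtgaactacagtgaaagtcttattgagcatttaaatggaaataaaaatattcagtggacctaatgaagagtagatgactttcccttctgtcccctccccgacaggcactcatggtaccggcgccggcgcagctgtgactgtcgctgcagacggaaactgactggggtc
MRPS12, chr19:38930794-38930943, plus strand: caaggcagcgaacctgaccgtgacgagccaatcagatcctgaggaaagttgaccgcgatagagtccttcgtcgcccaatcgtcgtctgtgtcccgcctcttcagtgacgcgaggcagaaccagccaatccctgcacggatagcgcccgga
MRPL51, chr12:6493263-6493412, minus strand: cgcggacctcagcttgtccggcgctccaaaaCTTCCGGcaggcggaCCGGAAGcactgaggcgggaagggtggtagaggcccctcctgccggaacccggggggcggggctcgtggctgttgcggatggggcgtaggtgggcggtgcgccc
MRPL58, chr17:75012520-75012669, plus strand: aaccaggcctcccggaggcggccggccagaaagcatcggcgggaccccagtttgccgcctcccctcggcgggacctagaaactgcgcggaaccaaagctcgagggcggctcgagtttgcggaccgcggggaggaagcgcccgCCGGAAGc
MRPL47, chr3:179604639-179604788, minus strand: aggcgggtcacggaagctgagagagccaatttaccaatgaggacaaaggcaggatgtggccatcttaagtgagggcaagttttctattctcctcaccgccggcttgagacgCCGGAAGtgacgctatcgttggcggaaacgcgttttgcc
The MRPL51 stretch holds the string in each orientation, beginning 119 and 104 bases upstream of the start. The authors' m7G peak of MRPL51 (chr12:6492876-6493841, annotated as 5′ UTR) begins 579 bases upstream of that start. The printed MRPL51 stretch therefore lies within the span of this peak. In MRPL58 it begins 8 bases upstream and in MRPL47 39 bases upstream. The MRPS12 match begins 5 bases upstream and runs past the start, so it is not in capitals. No match was found in the MRPS11 stretch.

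Members were expressed above the typical protein-coding gene in every library. The median member stood at 9.70 FPKM (DLD1-W13CM) and 7.15 FPKM (S-CAFs-w13), while the protein-coding medians were 3.92 and 3.82 FPKM. It stood at 18.8 FPKM in control input and 18.2 FPKM in knockdown input, where both protein-coding medians were 7.94 FPKM. By mean co-culture level the median member was at percentile 70.3 of protein-coding genes. Counted by library, 67 and 65 of the 78 members exceeded the protein-coding median of the co-culture libraries, as did 45 and 42 of the 58 members in control and knockdown input. Large subunit members had medians of 10.3 and 8.25 FPKM in the co-culture libraries and small subunit members 8.69 and 6.04 FPKM.

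The most abundant member was MRPL3, a large subunit protein with a bacterial relative, at 41.1 FPKM in DLD1-W13CM, 39.3 in S-CAFs-w13, 42.9 in control input and 40.4 in knockdown input. These 4 values were close, but the inputs come from a separate comparison whose unit was inferred, so an equal RNA level across the pairs is not shown. MRPS34, a small subunit protein specific to mitochondria, stood at 39.1, 28.6, 93.2 and 83.7 FPKM in the same order and was the highest member in both inputs. MRPS35 stood at 28, 36.2, 54.4 and 52.7 FPKM. MRPL37 stood at 35.2, 24.2, 45.0 and 42.9 FPKM. Both encode proteins specific to mitochondrial ribosomes. MRPL18, whose bacterial relative binds the small rRNA of the large subunit, stood at 33.2, 26.1, 32.7 and 35.3 FPKM. MRPL3, MRPS34, MRPS35, MRPL37 and MRPL18 were thus the 5 highest by co-culture mean, and their order differed between libraries.

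At the low end, MRPS24 had 0.0604 FPKM in DLD1-W13CM, on at least 1 read, and a like 0.0616 FPKM in S-CAFs-w13. RefSeq also lists the read-through gene URGCP-MRPS24 over its span, so reads of the pair could be split between them. MRPL46 was at 0.392 and 0.951 FPKM, and MRPL53 at 1.17 and 0.359 FPKM. These 3 members fell under the mean of 1 FPKM that was asked of a gene before its fold was counted, as did MRPL38 and MRPL53 in the knockdown table. MRPL53 was listed at 0 in control input and at 1.15 FPKM, from at least 18 reads, in knockdown input. The ranking of members was alike between libraries of a pair. Spearman's rho over members, given as a description, was 0.893 between the co-culture libraries (n = 78), 0.966 between the inputs (n = 58) and 0.771 between DLD1-W13CM and control input (n = 58).

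**Figure D1:**
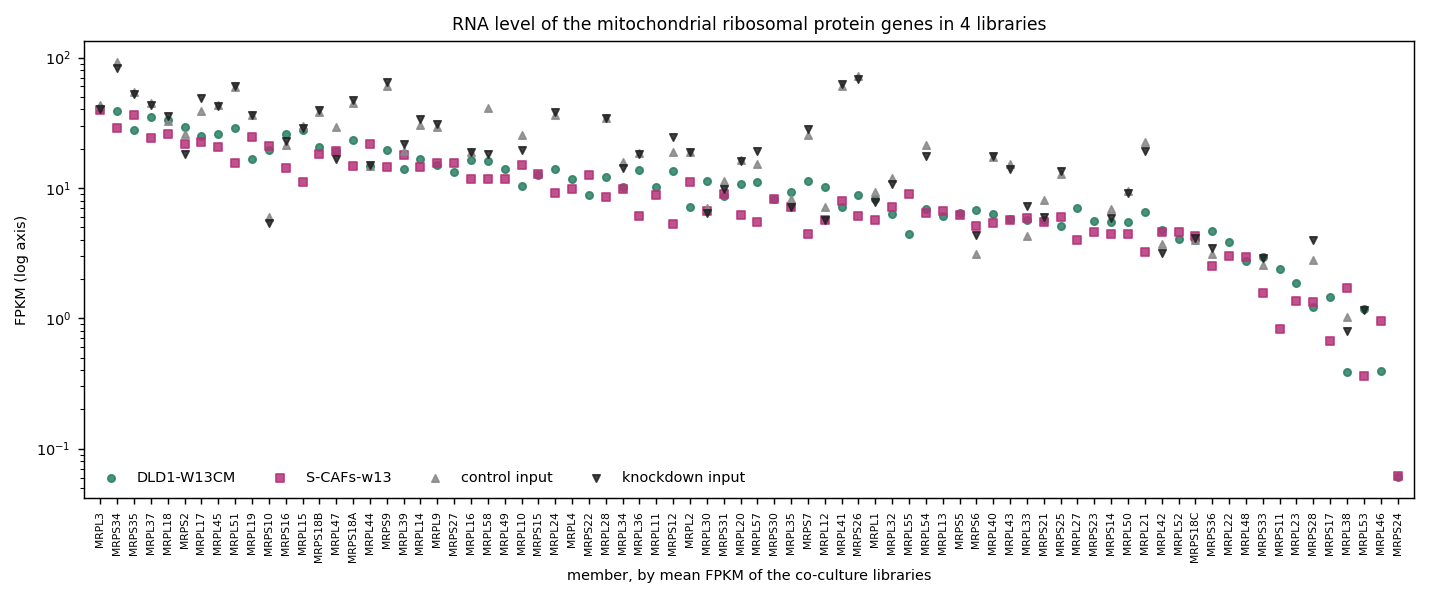
FPKM (log axis) of each of the 78 members in the 4 expression libraries, ordered by the mean of the co-culture libraries; members without a row in the knockdown table have no triangles, and a value of 0 is not drawn. Levels run from 41.1 FPKM (MRPL3) down to 0.0604 FPKM (MRPS24) in DLD1-W13CM, and the input libraries reach 93.2 FPKM (MRPS34).

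Read numbers were recovered from the steps of the FPKM values as the smallest whole numbers they allow. A member had a median of at least 146 reads in DLD1-W13CM, 118.5 in S-CAFs-w13, 420 in control input and 421.5 in knockdown input. Intervals in parentheses are 95% exact counting intervals of the FPKM ratio. They treat each read as a separate molecule, PCR copies included, so they hold counting error alone and can be too narrow. METTL1 checked the knockdown label: it stood at 5.80 FPKM in control input and 3.28 FPKM in knockdown input, 1.77-fold lower (1.37 to 2.29). In the co-culture libraries METTL1 stood at 4.82 FPKM (DLD1-W13CM) and 1.78 FPKM (S-CAFs-w13), 2.71-fold lower (1.75 to 4.29). The epithelial marker EPCAM stood at 154 and 149 FPKM in the co-culture libraries and at 228 and 235 FPKM in the inputs. The 9 of 10 colon epithelial markers with a co-culture row summed to 2093 FPKM (DLD1-W13CM) and 3199 FPKM (S-CAFs-w13), mostly from KRT8 (754 and 1051 FPKM) and KRT18 (892 and 1593 FPKM). They did not go 1 way. KRT19 (120 and 273 FPKM) and CEACAM5 (0.848 and 4.13 FPKM) were at least 2-fold higher in S-CAFs-w13, and the intestinal transcription factor CDX2 (19.0 and 6.83 FPKM) was 2.78-fold lower (2.33 to 3.32). CDH1, at 133 and 103 FPKM, was 1.30-fold lower (1.24 to 1.35). VIL1 stood at 2.1 and 1.12 FPKM and KRT20 at 17.1 and 17.5 FPKM, with intervals that span 1. Of 16 fibroblast markers 7 had a co-culture row, summing to 5.67 FPKM (DLD1-W13CM) and 5.33 FPKM (S-CAFs-w13), mostly from FN1 (3.12 and 1.71 FPKM) and ACTA2 (1.80 and 1.51 FPKM). The other 5 were below 1 FPKM and higher in S-CAFs-w13, namely VIM (0.489 and 0.780), PDGFRB (0.0221 and 0.564), COL6A1 (0.0295 and 0.331), COL1A1 (0.0482 and 0.229) and SPARC (0.163 and 0.200), although the intervals of VIM and SPARC span 1. Of 6 leukocyte and endothelial markers 3 had a row, summing to 1.30 and 1.89 FPKM. The part of any other cell type in the members' values was not tested. No row was listed for COL1A2, COL3A1, COL6A2, DCN, FAP, LUM, PDGFRA, POSTN and THY1.

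The co-culture libraries bear on what the RNA of DLD1 cells is like next to S-CAFs and in the other culture. Most members were lower in S-CAFs-w13 by a modest amount. On the log2(FPKM + 1) scale, which understates the change of low genes, the median of the 75 members with a mean of at least 1 FPKM was -0.24, while that of all 14739 such genes was 0.02. Of the 75 members, 51 were below 0 (68.0%), against 47.7% of all genes. At this scaling 4 members were at least 2-fold lower (5.33%), against a background of 7.92%, and 0 were at least 2-fold higher, against 9.08%. At 1.5-fold, 16 were lower (21.3%; background 18.5%) and 2 were higher (2.67%; background 20.4%). By counting intervals 30 members lay below a ratio of 1 (40.0%; background 25.9%) and 9 above it (12%; background 28.7%). That background holds noncoding genes too. Of the 10460 protein-coding genes at this level, 3261 lay below 1 and 3584 above it, larger shares than among all genes. The members thus stood apart from the table by few large increases and many small decreases, more than by large decreases. These counts depend on scaling. With the authors' own log2 fold changes 11 members were at least 2-fold lower (14.7%, against 15.8% of all genes at that scaling) and 27 at least 1.5-fold lower (36.0%, against 28.1%). With the mitochondrial genome left out of the scaling 8 were at least 2-fold lower (10.7%, against 11%) and 27 at least 1.5-fold lower (36.0%, against 26.1%). Among all genes past 2-fold the share that was higher was 53.4% here, 40.5% with the authors' scaling and 34.5% without the mitochondrial genome. Relative to the median of all genes, the median member lay 0.26 lower here, and between 0.22 and 0.28 lower in the settings tried.

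MRPL15 (ENSG00000137547), a large subunit protein with a bacterial relative, was the lowest member on the log2 scale. It stood at 27.8 FPKM (DLD1-W13CM) and 11.1 FPKM (S-CAFs-w13), 2.51-fold lower (1.94 to 3.28). MRPS12 (ENSG00000128626), part of the decoding centre of the small subunit, stood at 13.5 and 5.33 FPKM, 2.53-fold lower (1.91 to 3.37). MRPS7 (ENSG00000125445), whose bacterial relative organises the head of the small subunit, stood at 11.3 and 4.45 FPKM, 2.55-fold lower (2.0 to 3.28). MRPL36 (ENSG00000171421), among the smallest large subunit proteins, stood at 13.8 and 6.12 FPKM, 2.26-fold lower (1.62 to 3.18). These 4 were the members past 2-fold, and all have bacterial relatives. The RefSeq spans of MRPS7 (GGA3 and MIF4GD) and of MRPL36 (NDUFS6) overlap other protein-coding genes, so reads could be shared there. With overlapping members left out, MRPL15 and MRPS12 remained.

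MRPL57, a large subunit protein specific to mitochondria, stood at 11.1 FPKM (DLD1-W13CM) and 5.44 FPKM (S-CAFs-w13), 2.04-fold lower (1.54 to 2.72). MRPS11, a small subunit protein near the mRNA exit, stood at 2.38 and 0.829 FPKM, 2.87-fold lower (1.87 to 4.55). Both passed 2-fold as plain ratios but not on the log2(FPKM + 1) scale. So did MRPS17, at 1.46 and 0.671 FPKM (2.18-fold lower, 0.949 to 5.44), but its interval spans 1. Just short of 2-fold by plain ratio, MRPL21 stood at 6.48 and 3.25 FPKM (1.996-fold lower, 1.44 to 2.79). MRPS33 stood at 2.94 and 1.56 FPKM (1.88-fold lower, 1.33 to 2.70). MRPL51, whose upstream sequence is above, stood at 28.9 and 15.6 FPKM (1.86-fold lower, 1.52 to 2.28). MRPS36, the member outside the ribosome, was also lower, at 4.64 and 2.52 FPKM (1.84-fold lower, 1.1 to 3.15).

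MRPL38 had the highest ratio. It stood at 0.388 FPKM (DLD1-W13CM) and 1.71 FPKM (S-CAFs-w13), which is 4.42-fold higher (2.11 to 10.4). The read numbers behind it were at least 9 and 39, so the size of this ratio is poorly known. Its low level keeps it under 2-fold on the log2(FPKM + 1) scale. MRPL55 stood at 4.43 and 8.96 FPKM, 2.02-fold higher (1.44 to 2.87). Both are large subunit proteins, MRPL38 specific to mitochondria and MRPL55 with a bacterial relative. MRPL2 lies at the peptidyl transferase centre, and its RefSeq span overlaps KLC4. It stood at 7.08 and 11 FPKM, 1.56-fold higher (1.22 to 1.99). MRPL44 stood at 14.7 and 21.8 FPKM, 1.48-fold higher (1.21 to 1.82). MRPL19 stood at 16.8 and 24.5 FPKM, 1.46-fold higher (1.30 to 1.64). MRPL10, the base of the stalk that carries MRPL12, stood at 10.4 and 15 FPKM, 1.45-fold higher (1.19 to 1.76). The 6 highest members all belong to the large subunit. The stalk protein MRPL12 itself stood at 10.1 and 5.63 FPKM, 1.80-fold lower (1.18 to 2.78), opposite to MRPL10.

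**Figure D2:**
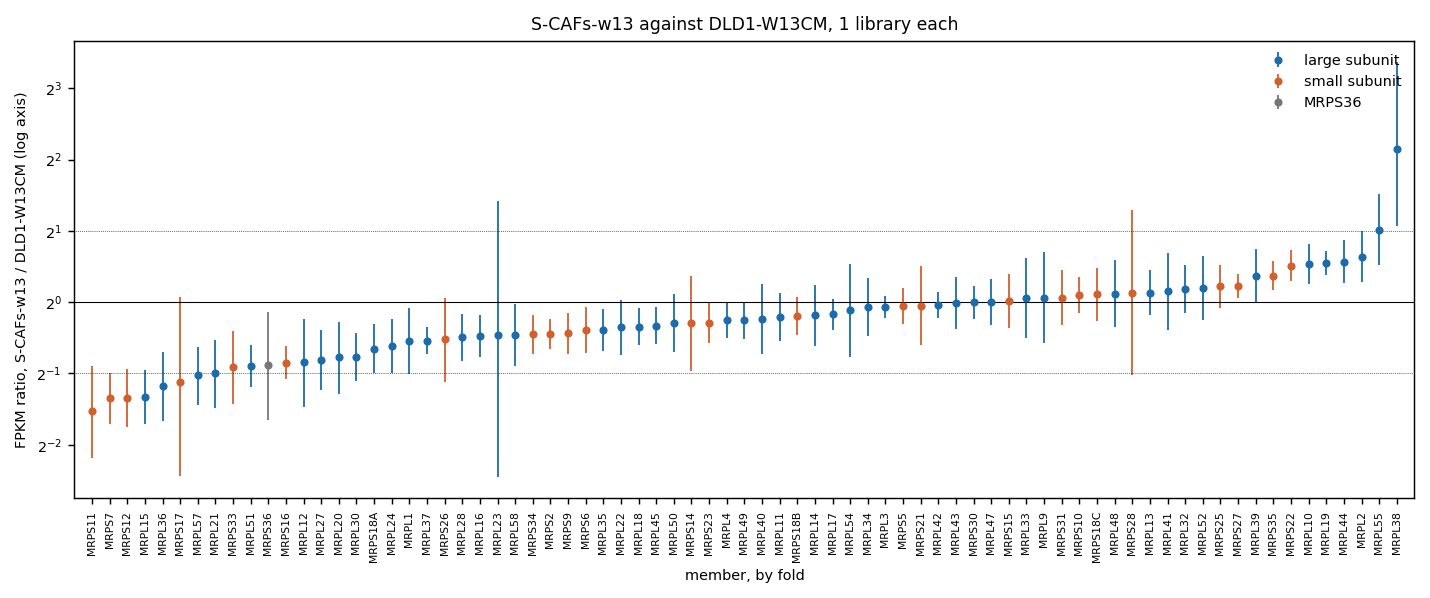
FPKM ratio of S-CAFs-w13 over DLD1-W13CM (log axis) for the 75 members with a mean of at least 1 FPKM, coloured by subunit, with the 95% counting interval as a bar; dotted lines mark 2-fold. Of these intervals 30 lie wholly below 1 and 9 wholly above it; bars are widest where few reads were recovered, as for MRPL23 (at least 7 and 5 reads).

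By subunit, the median log2 ratio was -0.20 for 49 large subunit members and -0.24 for 25 small subunit members, with 34 and 16 of them below 0. Members with a bacterial relative had a median of -0.27 (45 members, 32 below 0), and mitochondria-specific members -0.10 (29 members, 18 below 0). The differences between these groups were not tested. Across members the ratio went weakly with the recovered gene length (rho 0.19, n = 75), and across protein-coding genes likewise (rho 0.12, n = 10443). With mean FPKM rho was -0.02.

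The members without a knockdown row could be followed in the co-culture libraries alone. Apart from MRPL46, MRPL55, MRPS11 and MRPS24, given elsewhere, their levels follow with DLD1-W13CM first. In the large subunit, MRPL27 (6.98 and 3.99 FPKM) was 1.75-fold lower (1.31 to 2.36) and MRPL4 (11.7 and 9.76 FPKM) had a ratio of 0.837 (0.704 to 0.993). The intervals of the other large subunit members in this set span 1: MRPL49 (14.0 and 11.8), MRPL11 (10.3 and 8.87), MRPS30 (8.27 and 8.25), MRPL13 (6.11 and 6.69), MRPL52 (4.03 and 4.61), MRPL22 (3.86 and 3.02), MRPL48 (2.73 and 2.97) and MRPL23 (1.86 and 1.35). In the small subunit, MRPS22 (8.77 and 12.5 FPKM) was 1.43-fold higher (1.23 to 1.66) and MRPS27 (13.1 and 15.4 FPKM) 1.17-fold higher (1.04 to 1.32). Both are proteins specific to mitochondria. The intervals of MRPS15 (12.6 and 12.7), MRPS5 (6.41 and 6.15), MRPS23 (5.57 and 4.57) and MRPS17 (1.46 and 0.671) span 1.

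Start regions shared with a neighbour gave a way to set a member beside a gene read from the same stretch of DNA. RefSeq placed the start of a divergent protein-coding gene within 500 bases of 15 members. This count has no share over all genes beside it and is not read as a trait of the set. The starts of MRPS11 and MRPL46 lie 320 bases apart, and the MRPS11 sequence above covers most of the stretch between them. MRPS11 was 2.87-fold lower in S-CAFs-w13, while MRPL46 was 2.42-fold higher (1.01 to 6.39), from at least 8 and 19 reads. The MRPL46 mean is under 1 FPKM and its interval only just clears 1, so its direction is weakly supported at this depth. MRPS12 and SARS2, the mitochondrial seryl-tRNA synthetase, start 181 bases apart. SARS2 stood at 0.586 and 0.697 FPKM, a ratio of 1.19 (0.511 to 2.82), on few reads. MRPL57 and the mitosis gene SKA3 start 106 bases apart, and both were lower, SKA3 at 19.5 and 3.85 FPKM (5.05-fold lower, 3.92 to 6.58). MRPS18C and HELQ start 175 bases apart. HELQ, a DNA helicase, was 4.08-fold lower (2.45 to 7.13) at 3.36 and 0.823 FPKM, while MRPS18C stood at 3.96 and 4.27 FPKM, a ratio of 1.08 (0.835 to 1.39). MRPL30 was 1.71-fold lower (1.36 to 2.16), and MITD1, which starts 126 bases away, was 1.42-fold higher (1.02 to 1.98). Shared start regions thus went with like directions (MRPL57) and with opposite ones (MRPL30).

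Other genes of mitochondrial translation gave a frame for the members. Genes of mitochondrial ribosome assembly had a median log2 ratio of -0.32 (26 genes, 19 below 0), with 3 at least 2-fold lower and 0 higher. MRM2, which methylates the large mitochondrial rRNA, stood at 13.7 and 3.17 FPKM, 4.31-fold lower (3.21 to 5.87). DDX28, an RNA helicase of large subunit assembly, stood at 8.15 and 2.15 FPKM, 3.79-fold lower (2.5 to 5.91). MRM1, another rRNA methyltransferase, stood at 2.80 and 0.520 FPKM, 5.39-fold lower (2.23 to 15.8). These assembly genes were lower by more than any member of the ribosome itself that passed the level filter.

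Translation factors had a median of -0.12 (16 genes, 10 below 0), and TACO1, a translational activator of cytochrome oxidase subunit I, was 2.60-fold lower (1.90 to 3.62) at 9.95 and 3.82 FPKM. Mitochondrial tRNA synthetases had a median of 0.01 (16 genes, 8 below 0), and MARS2 was 2.92-fold lower (2.13 to 4.07) at 8.26 and 2.82 FPKM. Genes that copy, transcribe and process mitochondrial DNA and RNA had a median of -0.27 (15 genes, 9 below 0). Among them TRMT10C (19.1 and 7.07 FPKM, 2.69-fold lower, 2.09 to 3.51) and HSD17B10 (38.3 and 17.5 FPKM, 2.20-fold lower, 1.77 to 2.74) are partners in mitochondrial RNase P. TWNK, the mitochondrial DNA helicase, was 2.28-fold lower (1.77 to 2.97) at 9.22 and 4.04 FPKM. No gene of these lists was at least 2-fold higher. The 5 ribosomal proteins with other names, DAP3, CHCHD1, AURKAIP1, PTCD3 and GADD45GIP1, had a median of 0.04, and 2 were below 0.

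The RNAs that this machinery serves were lower by more. The 13 mRNAs of the mitochondrial genome had a median of -1.39, with all 13 below 0 and 11 at least 2-fold lower. MT-CYB stood at 5561 FPKM (DLD1-W13CM) and 797 FPKM (S-CAFs-w13), 6.97-fold lower (6.78 to 7.17). The others past 2-fold were MT-ATP8 (5.13-fold lower), MT-ATP6 (4.14), MT-ND3 (4.07), MT-CO3 (3.92), MT-CO2 (3.54), MT-CO1 (2.62), MT-ND2 (2.35), MT-ND1 (2.21), MT-ND6 (2.16) and MT-ND5 (2.02). MT-ND4L (1.90) and MT-ND4 (1.64) stayed under 2-fold. The mRNAs summed to 71011 and 27838 FPKM. The 2 mitochondrial rRNAs, on which the members assemble, had a median of 0.02: MT-RNR1 stood at 46047 and 46108 FPKM and MT-RNR2 at 55039 and 56893 FPKM. The rescaling above left out every gene of the mitochondrial genome, the rRNAs included. With it 66 of the 75 members were below 0, against 51 at the scaling used here. A part of the mitochondrial mRNAs alone in the members' values was not tested. In bulk RNA fewer cells of a type and less RNA per cell cannot be told apart.

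The knockdown comparison asks how the input RNA of METTL1 knockdown cells differs from that of control cells. The median member stood close to the median of all genes. The median log2 ratio of the 56 members with a mean of at least 1 FPKM was -0.01, against 0.01 for all 8400 genes. Of the 56 members 30 were below 0 (53.6%), against 48.8% of all genes. A single member was at least 2-fold lower (1.79%; background 0.56%) and 0 were at least 2-fold higher (background 0.429%). At 1.5-fold 2 were lower (3.57%; background 2.68%) and 1 was higher (1.79%; background 2.5%). By counting intervals 8 lay below 1 (14.3%; background 23%) and 6 above 1 (10.7%; background 24.8%). Large subunit members had a median of -0.03 (37) and small subunit members 0.05 (18).

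MRPL58 (ENSG00000167862), a large subunit protein that also acts as a peptidyl-tRNA hydrolase and was named ICT1 before, was the member past 2-fold. It stood at 41.3 FPKM in control input and 18.1 FPKM in knockdown input, from at least 478 and 233 reads, 2.28-fold lower (1.95 to 2.68). MRPL47 stood at 29.4 and 16.6 FPKM, 1.77-fold lower (1.51 to 2.07). It sits at the exit of the peptide tunnel, and its RefSeq span overlaps ACTL6A. The co-culture values of these genes were 16 and 11.6 FPKM for MRPL58 and 19.1 and 19.1 FPKM for MRPL47. MRPS2 stood at 25.9 and 18.2 FPKM in the inputs, 1.42-fold lower (1.27 to 1.6). MRPS21 stood at 8.04 and 6.03 FPKM, 1.33-fold lower (1.03 to 1.72). Both are small subunit proteins with bacterial relatives. The stalk pair were also among the 6 lowest, MRPL10 at 25.5 and 19.7 FPKM (1.29-fold lower, 1.16 to 1.44) and MRPL12 at 7.16 and 5.69 FPKM (1.26-fold lower, 0.897 to 1.77). The MRPL12 interval spans 1.

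MRPL33 stood at 4.29 FPKM in control input and 7.32 FPKM in knockdown input, 1.71-fold higher (1.27 to 2.32), the highest ratio among members. MRPS28 stood at 2.79 and 3.98 FPKM, 1.43-fold higher (0.999 to 2.05), an interval that reaches 1. MRPS6 stood at 3.12 and 4.38 FPKM, a ratio of 1.41 (1.13 to 1.75), and its RefSeq span holds SLC5A3 as well. All 3 were low in both inputs. MRPS12 stood at 18.7 and 24.7 FPKM, 1.32-fold higher (1.16 to 1.5). MRPL57 stood at 15.2 and 19.3 FPKM, 1.27-fold higher (1.11 to 1.46). MRPL17 stood at 38.6 and 48.6 FPKM, 1.26-fold higher (1.15 to 1.37). MRPS12 and MRPL57 were thus on opposite sides of 1 in the co-culture and knockdown comparisons.

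**Figure D3:**
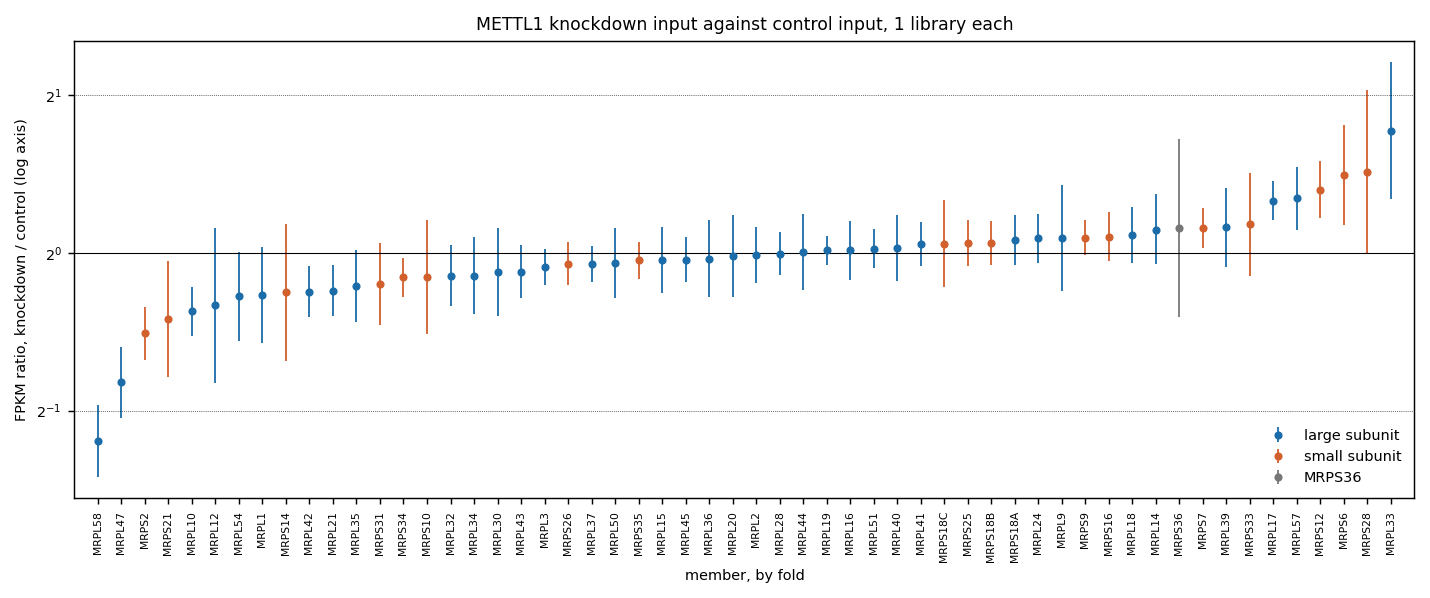
FPKM ratio of METTL1 knockdown input over control input (log axis) for the 56 members with a mean of at least 1 FPKM, coloured by subunit, with the 95% counting interval as a bar; dotted lines mark 2-fold. MRPL58 (ratio 0.438) and MRPL47 (ratio 0.566) stand at the low end, MRPL33 (ratio 1.71) at the high end, and most others lie close to 1.

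The expression comparisons share no library. Of the 56 members measured in both, 23 were lower in both, 17 lower in S-CAFs-w13 and higher in the knockdown, 7 the reverse, and 9 higher in both. These sign counts have no share over all genes beside them and are not read as an overlap. The ranking of ratios did not carry over (rho -0.09, n = 56). By counting intervals MRPL21, MRPL58, MRPS2 and MRPS34 lay below 1 in both. MRPL57, MRPS6, MRPS7 and MRPS12 lay below 1 in the co-culture and above 1 in the knockdown comparison, and MRPL10 did the reverse. Among all 7945 genes with both intervals, 8.31% lay below 1 in both, so the 4 members (7.14%) were near the background. Below 1 in the co-culture and above 1 in the knockdown comparison were 7.79% of all genes and 7.14% of members, and the reverse held for 7.50% and 1.79%. No member lay above 1 in both, against 9.69% of all genes. METTL1 itself was lower in S-CAFs-w13 and in the knockdown input, as given above.

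In the knockdown inputs the median log2 ratio was -0.08 for ribosome assembly (18 genes), 0.03 for translation factors (14), -0.05 for tRNA synthetases (15) and -0.17 for the 5 ribosomal proteins with other names, of which 4 were below 0. Genes of mitochondrial DNA and RNA handling had a median of -0.11, and 11 of their 12 were below 0 (91.7%). Among all genes 48.8% were below 0. No gene of these lists passed 2-fold. The knockdown table listed no gene of the mitochondrial genome, so the level of its mRNAs was not analysed here in those libraries.

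The m7G values are the authors' deposited ones: for each peak a fold enrichment, and a log2 change between the lines with its p and FDR. Over which libraries the enrichment was taken is not stated, nor is the numerator of the change, which is read here as knockdown over control. Member peaks sat near the start of the gene. Of the 51 members whose peak could be set against a RefSeq start, 42 (82.4%) had the 5′ edge of the peak within 250 bases of it, against 67.8% of peaks of protein-coding genes. Where RefSeq lists several starts for a gene, the nearest was taken. For MRPS12 and MRPL47 it differs from the start that ends the printed sequence. The authors' annotation placed 37 member peaks (63.8%) in coding sequence, 14 (24.1%) in the 5′ UTR, 7 (12.1%) in other exonic sequence and 0 in the 3′ UTR. Among protein-coding genes 32.5% were in coding sequence and 54.8% in the 5′ UTR, with 2.27% in the 3′ UTR. The annotation and the distance therefore differed for members: 26 of 31 coding-sequence peaks (83.9%) still began within 250 bases of the start, against 57.5% of coding-sequence peaks of protein-coding genes. These shares are descriptions, and the difference was not tested.

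The median fold enrichment of member peaks in the authors' deposited table was 14.2, with quartiles of 9.29 and 23.2, against 12.4 for all 9450 peaks and 12.7 for protein-coding genes. Member peaks near a start had a median of 16.2 and the 9 away from it 3.10, and protein-coding genes 15.3 and 5.46. By class the member medians were 19.9 in the 5′ UTR, 12.7 in coding sequence and 18.5 in other exonic sequence. The highest enrichment was that of MRPS35, at 75, followed by MRPS6 at 63.8, MRPS2 at 58.6, MRPL44 at 56.1 and MRPL39 at 44.4. Of these, the peaks of MRPS35, MRPS2, MRPL44 and MRPL39 began 36 to 91 bases upstream of the RefSeq start, and that of MRPS6 began 324 bases upstream. The lowest were MRPL33 at 1.95, MRPS12 at 2.01 and MRPS21 at 2.34, whose peaks began 2768, 874 and 447 bases downstream of the nearest RefSeq start. Enrichment went little with input level over members (rho 0.17, n = 58).

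The m7G change of members was mixed. Of the 58 peaks, 34 in the authors' deposited table were lower and 24 higher in the knockdown, with a median log2 change of -0.06 against 0.004 for all peaks. Thus 58.6% of member peaks were lower, against 48.6% of all peaks. At an FDR under 0.05, 1 member was lower (1.72%; background 2.18%) and 2 were higher (3.45%; background 3.07%). The lower one was MRPL45, which anchors the mitochondrial ribosome at the inner membrane. Its 5′ UTR peak, at chr17:38297113-38298581, had a log2 change of -1.5 (the authors' FDR 0.0288) and an enrichment of 37.7. MRPL45 input RNA stood at 43.5 FPKM (control) and 42.2 FPKM (knockdown), a ratio of 0.971 (0.880 to 1.07). The m7G value of MRPL45 was therefore lower at a nearly equal input level.

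The coding-sequence peak of MRPL41, a large subunit protein, at chr9:137551844-137552291, had a log2 change of 0.361 (the authors' FDR 0.0117) and an enrichment of 12.1. Its input RNA stood at 60.4 and 62.8 FPKM, a ratio of 1.04 (0.944 to 1.14). The coding-sequence peak of MRPL15 had a log2 change of 0.737 (the authors' FDR 0.0347) and an enrichment of 29.9, with input RNA at 29.9 and 29 FPKM, a ratio of 0.969 (0.840 to 1.12). MRPL15 was also the member with the lowest log2(FPKM + 1) ratio in the co-culture comparison, though not the lowest plain ratio. The next by p in the authors' deposited table were MRPL50 (log2 change 0.848, FDR 0.136) and MRPS12 (log2 change -0.847, FDR 0.137), neither under the threshold. The lowest log2 change of any member was -1.55, for MRPL2, with an FDR of 0.676.

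**Figure D4:**
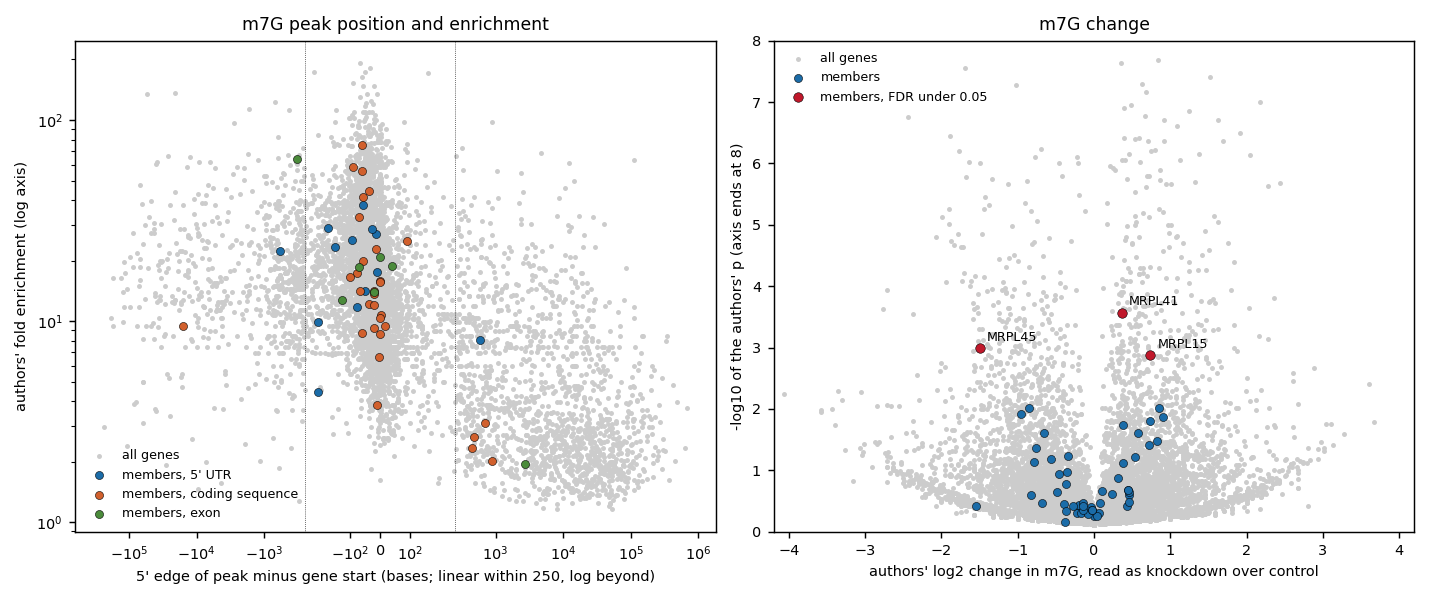
Left, distance of the peak's 5′ edge from the RefSeq gene start (linear within 250 bases, log beyond) against the authors' fold enrichment (log axis), members coloured by the authors' class over all genes in grey; 42 of 51 members lie within the dotted lines at 250 bases. Right, the authors' log2 change in m7G against -log10 of their p, with the axis ending at 8; MRPL45, MRPL41 and MRPL15 are the 3 members with an FDR under 0.05.

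By subunit, 13 of 18 small subunit peaks (72.2%, median -0.19) and 20 of 39 large subunit peaks (51.3%, median -0.01) were lower in the knockdown. Among all peaks 48.6% were lower. By class, 11 of 14 5′ UTR peaks (78.6%) and 17 of 37 coding-sequence peaks (45.9%) were lower. Among all peaks of these classes 47.9% and 49.0% were lower. These splits were not tested. The members past 1.5-fold in input RNA had m7G log2 changes of 0.449 (MRPL58), 0.430 (MRPL47) and -0.374 (MRPL33), with FDR of 0.617, 0.676 and 0.676 in the authors' deposited table. Over 56 members the m7G change and the input log2 ratio had a rho of -0.36. Both quantities use the same input libraries, so this value is a description and not a result.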

How the data were processed

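Deposited values were used for 4 expression libraries and for m7G peaks, each group holding 1 library. The expression tables deposited by the authors are in FPKM, per the file headers for the co-culture; the knockdown table does not name its unit, which was taken to be FPKM too because its values behave alike. Tools in the submitters' processing notes are HISAT2 2.1.0 and cutadapt 2.5, SAMtools 1.10, featureCounts 1.6.3, HOMER 4.10.4 and an unversioned DESeq2; GRCm38 appears there beside GRCh38 and hg38, with no roles. Not given in the sources used here are the peak caller and whether mRNA caps were removed. The authors also deposited log2 fold changes with p-values, and per peak a fold enrichment ratio, a log2 change in m7G, and the log10 of its p and FDR, per the file headers. Log10 values were turned back into p and FDR. Deposited peak starts were read as counted from 0, because 124 plus-strand peaks then begin on a RefSeq GRCh38.p14 start against 18 otherwise.

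Ratios were taken as log2((FPKM + 1)/(FPKM + 1)) for genes averaging at least 1 FPKM over the pair; printed folds are FPKM divided by FPKM. Within a table, the FPKM of one library over that of the other equalled a constant times a quotient of whole read numbers (tolerance 1e-14) for 20805 of 20806 co-culture genes and 9348 of 9348 knockdown genes. With RefSeq lengths of mitochondrial genes this gave effective library sizes (the number by which reads were divided) of 6337932 for DLD1-W13CM and 6215547 for S-CAFs-w13, 10454179 for the control and 11625162 for the knockdown input, and the smallest read numbers the values allow. True numbers can be whole multiples, so the exact Clopper-Pearson 95% intervals are at their widest. The recovery was run on simulated data built from the recovered lengths with counting noise alone, so that run says nothing on PCR copies. Counting did not state strand, and the RefSeq spans of 18 members overlap another protein-coding gene. Pseudogene rows of the same symbol stem (7) reached at most 2.15 FPKM.

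The members, lists and rules were chosen with earlier results of these data known. Values are given for METTL1, the 6 highest and 6 lowest members of each expression comparison, the 5 most and 3 least abundant, the 5 highest and 3 lowest by enrichment, members with an m7G FDR under 0.05 or among the 5 lowest p, members without a knockdown row, and list genes past 2-fold. The co-culture values of MRPL12, MRPL47 and MRPL58 were chosen after they were seen. So were MRPL21, MRPL51, MRPS33, MRPS36, the divergent pairs and the motif strings. Python 3.11.15, NumPy 2.4.6, pandas 2.3.3, SciPy 1.17.1 and Matplotlib 3.10.9 were used.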

Additional observations from a re-analysis of the deposited data

How the results depend on the processing

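No paired analysis was possible because each group held 1 library. A reversal of sign was looked for only in values past 1.5-fold and in medians of at least 0.1 in size on the log2 scale. None was found there. Counts, the members' median in the knockdown inputs and the median m7G change could not be labelled as reversed. The sign of the m7G change follows from how its numerator is read. In the co-culture comparison, members at least 2-fold lower numbered 4 as reported, 7 with a pseudocount of 0.1 or as plain ratios, 11 with the authors' log2 fold change, 8 with the mitochondrial genome left out of the scaling, and 2 without members overlapping another gene. Members at least 2-fold higher numbered 1 with a pseudocount of 0.1 or the authors' log2 fold change and 2 as plain ratios. Members at least 1.5-fold lower numbered 27 with either other scaling, and 1 was 1.5-fold higher at a mean of at least 5 FPKM. The median member was -0.40 with the authors' scaling and -0.42 without the mitochondrial genome, and the median of all genes moved by -0.14 and -0.19. In the knockdown inputs 1 member was 2-fold and 2 were 1.5-fold higher with no filter, MRPL53 being added, and 1 was 1.5-fold lower without overlapping members. Rescaling without the mitochondrial genome was not run there, since the table lists none of its genes. For m7G, reading the change as control over knockdown gives 2 lower, 1 higher and a median of 0.058; at p under 0.05 there were 5 lower (8.62%, against 7.50% of all peaks) and 9 higher (15.5%, against 8.60%), and at an FDR under 0.01 0 of each, against 0.984% and 1.59% of all peaks. Median enrichment was 19.9 in 5′ UTR peaks alone. Apart from the changes that follow from a setting's own construction, the cause was not tested. Leaving out overlapping members was chosen after the data were seen. Of the single members and lists recomputed, 43 values moved by at least 0.1 on the log2 scale and 87 by less. With 1 library per group and a single knockdown construct, spread between cultures is unknown, and members with few reads, such as MRPL23, MRPL38 and MRPL46, have folds that their depth leaves imprecise.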
